A study of Mus musculus with 2 samples.

Results

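The 10 genes described here encode transforming growth factor beta 1 (TGF-beta 1) and the proteins that mature, hold, activate and read it. They are Tgfb1, Lrrc32, Itgb8, Itgav, Furin, Tgfbr1, Tgfbr2, Smad3, Smad4 and Smad7. They were chosen by their GENCODE M21 gene symbols, and each symbol matched 1 of the 55536 genes in the deposited tables. Together they carry 51 annotated transcripts. The RNA came from activated regulatory T cells, CD4 T cells that express Foxp3 and restrain immune responses. The donor was an adult male mouse, 4 months old, labelled as strain Foxp3CreERT2 x Rosa26YFP. Foxp3CreERT2 is a Cre recombinase inducible with tamoxifen and driven from Foxp3, and Rosa26YFP is a yellow fluorescent reporter at the Rosa26 locus. The labels call these primary cells, trace them to a haematopoietic cell of the bone marrow, and do not state the tissue of isolation, the sort or the means of activation.

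Polyadenylated RNA was sequenced as 2 libraries, technical replicates 1 and 2 of biological replicate 1, called library 1 and library 2 here. There is 1 group and no untreated or resting sample, so the data answer how much of each gene these cells expressed, from which annotated transcripts, and how closely the libraries agree. A value with ± is the mean and SD of library 1 and library 2 (n = 2, both from the 1 biological replicate). The SD covers technical spread and counting error and says nothing of the spread between animals. The estimated reads assigned to genes numbered 15076048 in the first of these and 14635787 in the other. All 7 markers fixed for T cells and regulatory T cells were expressed, with a summed level of 4453 TPM in library 1 and 4680 in library 2, where TPM is a transcript level scaled by length to a fixed sum per library. Most of this sum came from Trac, at 2729 and 2761 TPM, and Cd3e, at 598 and 698 TPM. The lineage factor Foxp3 stood at 23.8 and 20.9 TPM, the lowest of the 7. Full-length coding transcripts, defined below, held only 16.1% and 11.3% of the TPM of Foxp3 in libraries 1 and 2.

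TGF-beta 1 is made as a precursor that furin cuts into a propeptide and the mature cytokine. The propeptide stays wrapped around the cytokine and keeps it latent. On regulatory T cells the latent complex is docked at the surface by GARP, the product of Lrrc32. The integrin αvβ8 (Itgav and Itgb8) activates the latent complex by binding an arginine-glycine-aspartate (RGD) motif in the propeptide. Active cytokine binds TGFBR2, which recruits and phosphorylates TGFBR1. TGFBR1 phosphorylates SMAD2 and SMAD3, which enter the nucleus with SMAD4, and SMAD7 is an induced inhibitor of the receptor. In T cells this pathway is known for supporting Foxp3 expression and the residence marker CD103.

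The cut site and the integrin site are the features of the ligand that Furin, Itgav and Itgb8 act on, so their codons are shown first. Each sequence is the sense strand of the full-length GENCODE M21 transcript, 5′ to 3′ on mm10, with the codons of the motif in capitals and 24 coding bases on either side. Tgfb1-201 encodes 390 residues, and both of its motifs lie in exon 5 of 7. The RGD codons of Tgfb1 (residues 244 to 246) are at chr7:25697142-25697150, plus strand. Tgfb3-201, which encodes 412 residues, has RGD at residues 261 to 263, chr12:86062165-86062173, minus strand. Tgfb2-201, with 414 residues, holds no RGD.
Tgfb1 RGD: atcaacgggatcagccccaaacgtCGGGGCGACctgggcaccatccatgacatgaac
Tgfb3 RGD: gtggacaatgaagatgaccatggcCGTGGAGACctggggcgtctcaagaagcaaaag

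A search of the 3 ligand proteins for the furin-type pattern, arginine, any residue, lysine or arginine, then arginine, found 1 match in each. In Tgfb1 the match is RHRR (residues 275 to 278, chr7:25697235-25697246, plus strand). Tgfb2 has RKKR at residues 299 to 302 (chr1:186630636-186630647, minus strand) and Tgfb3 has RKKR at residues 297 to 300 (chr12:86062054-86062065, minus strand). A match is a description of the letters and not a measured cut.
Tgfb1 RHRR: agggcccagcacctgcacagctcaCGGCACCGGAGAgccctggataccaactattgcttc
Tgfb2 RKKR: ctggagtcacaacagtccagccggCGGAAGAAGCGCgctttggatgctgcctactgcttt
Tgfb3 RKKR: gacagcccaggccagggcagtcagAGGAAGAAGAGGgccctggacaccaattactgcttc

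All 10 genes were expressed, taking 1 TPM in both libraries as the threshold, as were 10171 of 22028 protein-coding genes (46.2%). The median expressed protein-coding gene stood at 18.1 TPM, and 5 of the 10 genes lay above it: Lrrc32, Itgav, Tgfbr1, Tgfbr2 and Smad4. With library 2 taken alone, 4 of the 10 lay above that library's median, since Smad4 was at 17.3 TPM there. The docking protein and the αv chain led, the receptors and Smad4 followed, and the ligand itself came last. Smad3, Furin, Itgb8 and Smad7 lay between Smad4 and Tgfb1.

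**Figure D1:**
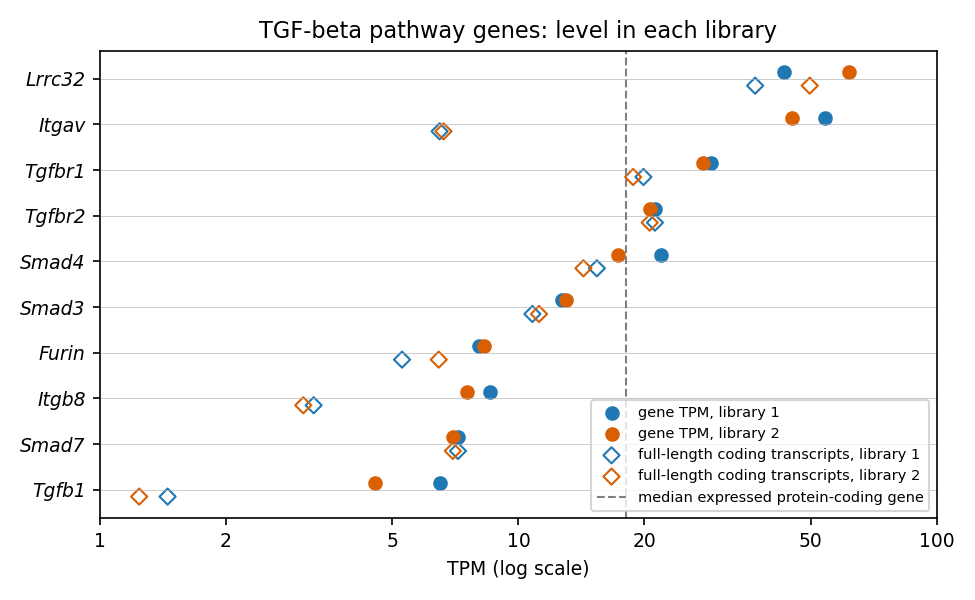
Level of each gene in TPM (horizontal, log scale) for library 1 (blue) and library 2 (orange). Filled circles are the deposited gene TPM, and open diamonds are the summed TPM of full-length coding transcripts. The dashed line marks the median expressed protein-coding gene at 18.1 TPM. It is a median of gene TPM, so it is to be read against the circles and not the diamonds. Itgav moves from 49.5 to 6.55 TPM between the circle and the diamond, while Tgfbr2 and Smad7 do not move.

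The ligand gene Tgfb1 (ENSMUSG00000002603.15, chr7:25687002-25705077, plus strand) was listed at 6.51 TPM in library 1 and 4.55 in library 2, or 5.53 ± 1.39. It ranked at percentile 20.6 of expressed protein-coding genes, the lowest of the 10. These levels rest on 119 and 90.6 estimated reads, whose exact Poisson 95% intervals, 98.9 to 143 and 72.9 to 111, overlap. Of the other ligand genes, Tgfb3 was at 0.870 ± 0.0283 TPM from 37 and 33 reads and Tgfb2 at 0.115 ± 0.0212 TPM from 5 and 8 reads. By gene TPM, Tgfb1 was the only ligand gene of the 3 above 1 TPM. Over full-length coding transcripts the gap to Tgfb3 was narrower, at 1.34 ± 0.148 against 0.870 ± 0.0283 TPM, and the reads behind these levels were alike, 38.3 and 30.8 against 37 and 33. Both of these ligands carry the RGD codons shown above, and Tgfb2, which lacks them, was close to 0.

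Lrrc32 (ENSMUSG00000090958.2, chr7:98489283-98502181, plus strand), the surface dock, was listed at 43.2 TPM in library 1 and 61.7 in library 2. Its mean of 52.5 ± 13.0 TPM was the highest of the 10 genes and lay at percentile 76.7. Library 2 was higher both in TPM and in estimated reads (1801 and 2271). Nrros, which docks latent TGF-beta on myeloid cells and microglia, was at 51.0 ± 2.38 TPM, and Hsp90b1, the chaperone that GARP and integrins need for folding, at 141 ± 1.04 TPM. The secreted latent TGF-beta binding proteins were low. Ltbp4 was at 0.730 ± 0.339 TPM, and Ltbp1, Ltbp2 and Ltbp3 were at 0.0750 TPM or less with under 4 reads in either library. By TPM, Lrrc32 stood at 6.64 times Tgfb1 in library 1 and 13.6 times in library 2.

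The integrin genes differed from each other. Itgav (ENSMUSG00000027087.11, chr2:83724397-83806916, plus strand) was listed at 54.1 and 45.0 TPM, a mean of 49.5 ± 6.41. Itgb8 (ENSMUSG00000025321.14, chr12:119158022-119238802, minus strand) was listed at 8.56 and 7.53 TPM, a mean of 8.04 ± 0.728. Lrrc32 and Itgav were not separated, since their order turned between the libraries, whereas every other gene was below both in each library. Of the other chains that pair with αv, Itgb1 was at 214 ± 5.69 TPM and Itgb3 at 11.0 ± 1.87 TPM. Itgb5 was at 0.805 ± 0.559 TPM, and Itgb6, the other well-known activator of latent TGF-beta, at 0.0450 ± 0.0354 TPM. Thrombospondin 1 and the matrix metalloproteinases Mmp2, Mmp9 and Mmp14, which can also activate latent TGF-beta, were all below 1 TPM on average. Thbs1 had 0 reads in library 1 and 1 in library 2, and Mmp2 had 0 reads in both.

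Furin (ENSMUSG00000030530.15, chr7:80388585-80405436, minus strand) was listed at 8.04 and 8.27 TPM in libraries 1 and 2, which gives 8.15 ± 0.163. Its level was not separated from that of Itgb8, which was higher in library 1 and lower in library 2. Of the 7 proprotein convertases, Furin, Pcsk7 (12.4 ± 2.70 TPM) and Pcsk4 (8.99 ± 0.0283 TPM) were expressed. By gene TPM Furin was the lowest of these 3, but not by full-length coding transcripts, where it was above Pcsk4. None of the reads of Pcsk4 was assigned to a transcript with its full coding sequence. Pcsk1, Pcsk2, Pcsk5 and Pcsk6 were at 0.105 TPM or less.

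The receptors were close to each other in level and between libraries. Tgfbr1 (ENSMUSG00000007613.15, chr4:47353222-47414931, plus strand) was listed at 28.9 and 27.6 TPM, a mean of 28.2 ± 0.940. Tgfbr2 (ENSMUSG00000032440.13, chr9:116084293-116175360, minus strand) was listed at 21.2 and 20.6 TPM, a mean of 20.9 ± 0.431. Tgfbr2 was thus 0.733 and 0.747 times as abundant as Tgfbr1, the smallest spread between libraries, relative to the mean, of the 8 ratios computed. The coreceptor Tgfbr3 (betaglycan) was at 4.07 ± 1.45 TPM, the receptor-associated Tgfbrap1 at 4.56 ± 1.27 TPM, and endoglin (Eng) had 0 reads in both libraries. Receptors for activins and bone morphogenetic proteins were lower than Tgfbr1 and Tgfbr2. Of 9 such genes 4 were expressed, from Acvr1b at 2.37 ± 0.481 TPM down to Acvrl1 at 1.44 ± 0.290 TPM, and Bmpr1b had 0 reads.

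Among the signal transducers, Smad3 (ENSMUSG00000032402.12, chr9:63646767-63757994, minus strand) was listed at 12.7 and 13.0 TPM, a mean of 12.8 ± 0.191. Smad2, which TGFBR1 also phosphorylates, was higher at 32.3 ± 5.24 TPM, and Smad3 stood at 0.444 and 0.360 times Smad2. The common partner Smad4 (ENSMUSG00000024515.13) was listed at 21.9 and 17.3 TPM, a mean of 19.6 ± 3.28, and was not separated from Tgfbr2. The inhibitor Smad7 (ENSMUSG00000025880.11) was listed at 7.17 and 6.97 TPM, a mean of 7.07 ± 0.141. Smad3 was above Smad7 and below Smad4 in both libraries. Of the SMADs that serve bone morphogenetic protein receptors, Smad5 (8.18 ± 0.940 TPM) and Smad1 (4.88 ± 1.12 TPM) were expressed and Smad9 was at 0.0300 TPM. Smad6, the other inhibitory SMAD, had 0 reads in both libraries, so that Smad7 was the only inhibitory SMAD with reads.

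The 12 lists of pathway genes hold 93 genes, of which 83 are other than the 10 described here, and 47 of those 83 reached 1 TPM in both libraries. Ubiquitin ligases, deubiquitinases, phosphatases and receptor-binding proteins that tune the pathway gave 13 of 14. By gene TPM Fkbp1a (232 ± 9.12 TPM), Usp15 (109 ± 3.75 TPM) and Usp4 (77.3 ± 3.65 TPM) were the highest. Full-length coding transcripts held 0% of TPM in Fkbp1a in both libraries. The share in libraries 1 and 2 was 7.36% and 6.92% in Usp15 and 64.0% and 70.1% in Usp4. Over these transcripts alone Usp4 was therefore above Usp15 and Fkbp1a. Nedd4l (2.73 ± 1.59 TPM) was the lowest of those expressed, and the decoy receptor Bambi was at 0.0850 ± 0.0778 TPM. SMAD anchors, partners and corepressors gave 8 of 10, with Crebbp at 45.5 ± 0.198, Skil at 39.8 ± 1.85, Trim33 at 38.6 ± 1.73 and Tgif1 at 30.6 ± 2.18 TPM. Tgif2 (3.99 ± 0.0636 TPM) was the lowest of those expressed, and Foxh1 had 0 reads. In libraries 1 and 2 full-length coding transcripts held 97.9% and 98.7% of TPM in Crebbp and 96.3% and 96.7% in Skil. The share was only 11.7% and 12.5% in Trim33 and 3.69% and 1.87% in Tgif1. All 5 genes of the branch that signals through TAK1 (Map3k7) were expressed, from Tab2 at 30.4 ± 1.39 to Tab3 at 1.61 ± 0.0566 TPM. Of 8 activin and bone morphogenetic protein ligand genes 2 were expressed, Bmp7 at 13.0 ± 0.226 and Gdf11 at 4.91 ± 0.976 TPM.

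Of 11 genes known as SMAD targets in various cells, 8 were expressed, which is a description of level and not of signalling. The inhibitors of DNA binding Id2 and Id3 were at 262 ± 14.1 and 216 ± 4.85 TPM, and Id1 was at 0.365 ± 0.516 TPM with 8 reads in library 1 and 0 in library 2. Itgae, which encodes the αE chain of CD103, was at 79.4 ± 11.0 TPM. The negative regulators Skil (39.8 TPM), Ldlrad4 (20.8 ± 2.43 TPM), Pmepa1 (9.79 ± 0.799 TPM) and Smad7 were all expressed. No sample without TGF-beta or without activation was among the files, so whether any of these genes had been induced was not tested.

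**Figure D2:**
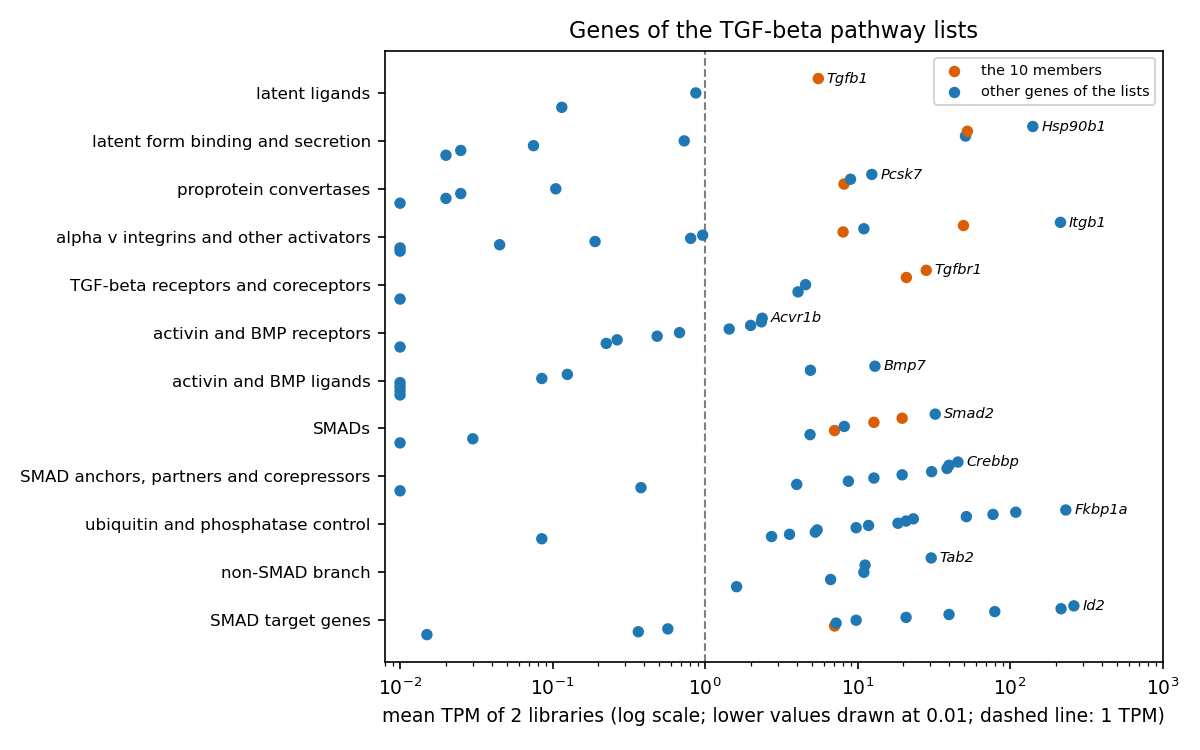
Mean TPM of the 2 libraries (horizontal, log scale) for every gene of the 12 lists, 1 row per list; orange points are the 10 genes described here, blue points the others, and values below 0.01 are drawn at 0.01. The dashed line is at 1 TPM, and the highest gene of each row is named. In the top row only Tgfb1 of the 3 ligand genes lies right of the line, and all 5 genes of the non-SMAD branch do.

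Other cell types can bring RNA of these genes into a bulk library, where fewer cells of a type and less RNA per cell cannot be told apart. Platelets, which are rich in TGF-beta 1 and also carry GARP, left 0.510 and 0.540 TPM summed over 5 markers, with Ppbp and Gp1bb at 0 reads. Macrophage and monocyte markers summed to 3.85 and 6.25 TPM over 6 genes, 1 of which was expressed (Cd68), and Cd14 was at 0. Dendritic cell markers, of interest because those cells carry αvβ8, summed to 6.77 and 7.32 TPM over 6 genes, 2 of which were expressed (Zbtb46 and H2-Aa), with Itgax and Siglech at 0. B cell markers summed to 1.93 and 2.17 TPM over 4 genes, 1 of which was expressed (Cd79a). CD8 T cell markers summed to 11.4 and 15.6 TPM over 2 genes, 1 of which was expressed (Cd8b1, at 9.94 and 14.81 TPM). Stromal, endothelial and epithelial markers summed to 1.73 and 1.59 TPM over 6 genes. The part of any such cells in the levels of the 10 genes was not tested.

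The deposited transcript tables divide each gene's reads among its annotated transcripts. This is a model estimate from short reads, so shares are described and not tested. A transcript was called full-length coding here where it is annotated protein-coding and holds at least 90% of the gene's longest coding sequence, a definition set after the data were seen. Full-length coding transcripts held 100% of TPM in Tgfbr2 and Smad7, between 68.5% and 85.9% in Smad3, Lrrc32, Smad4, Furin and Tgfbr1, and less in Itgb8 (39.2 ± 2.00%), Tgfb1 (24.7 ± 3.41%) and Itgav (13.3 ± 1.93%). The median over 7542 protein-coding genes with several transcripts and at least 5 TPM was 64.3%. By reads in place of TPM the share was 98.8% in Smad3, 98.3% in Lrrc32, 96.0% in Smad4, 88.0% in Tgfbr1, 68.8% in Furin, 64.2% in Itgb8, 62.9% in Itgav and 33.0% in Tgfb1, against a median of 82.5% over those 7542 genes. Tgfb1 was the only 1 of the 10 whose leading transcript was not protein-coding.

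**Figure D3:**
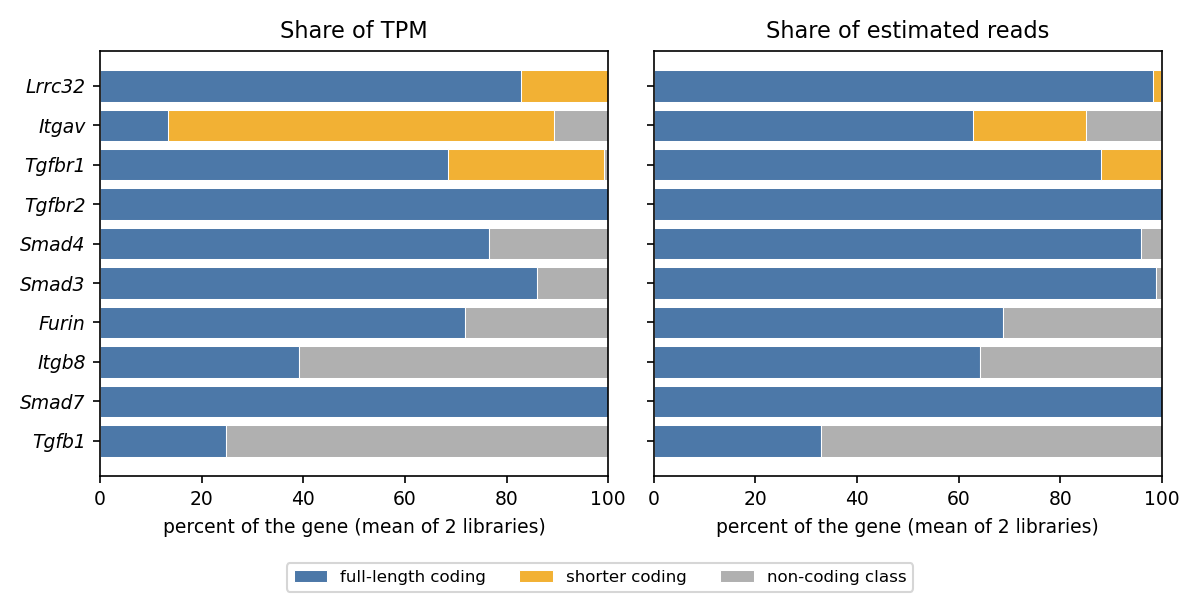
Share of each gene in full-length coding (blue), shorter coding (yellow) and non-coding (grey) transcript classes, in percent of the gene's TPM (left) and of its estimated reads (right), mean of 2 libraries. Itgav is 13.3% full-length coding by TPM and 62.9% by reads, whereas Tgfb1 is low by both, at 24.7% and 33.0%.

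In Tgfb1 most reads were assigned outside the coding transcript. The only full-length coding transcript, Tgfb1-201 (2175 bases, 7 exons), was given 38.3 reads in library 1 and 30.8 in library 2, or 1.45 and 1.24 TPM. Tgfb1-204, a single stretch of 2573 bases annotated as a retained intron, was given 68.4 and 50.7 reads. None of its bases lies in an exon of Tgfb1-201, so these reads came from intronic sequence as far as the annotation goes. Of its 2524 windows of 50 bases, 24 (0.951%) also occur in transcripts of 8 other genes. Counted over coding transcripts alone, Tgfb1 was at 1.34 ± 0.148 TPM. The low level of Tgfb1 and the ratios built on it therefore rest on few reads: Lrrc32 stood at 10.1 ± 4.89 times Tgfb1 by gene TPM and at 32.7 ± 10.4 times by full-length coding transcripts. Furin stood at 1.53 ± 0.412 times Tgfb1 by gene TPM and 4.42 ± 1.11 times by full-length coding transcripts.

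In Itgav the gene's TPM comes mainly from 1 short transcript model. Itgav-205 has 463 bases in 3 exons and was given 218 reads in library 1 and 161 in library 2, which the scaling by length turned into 42.5 and 33.1 TPM, or 78.6% and 73.7% of the gene. The full-length transcript Itgav-202, with 28 exons and 6788 bases, was given more reads, 508 and 522, and yet only 6.08 and 6.62 TPM. The annotation marks Itgav-205 as incomplete at its 5′ end and gives it a transcript support level of 5. It joins the last part of exon 27 of Itgav-202 to the start of the last exon, then skips 3296 bases of that exon (chr2:83803337-83806632) and ends at the same base. Every base of Itgav-205 lies in an exon of a full-length transcript, and only 44 of its 414 windows of 50 bases (10.6%), those across the skipped stretch, are found in no other Itgav transcript. Over full-length coding transcripts alone Itgav was at 6.55 ± 0.0990 TPM. The ratio of Itgav to Itgb8 was 6.15 ± 0.241 by gene TPM and 2.08 ± 0.116 by full-length coding transcripts.

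Itgb8 and Furin also held reads in retained-intron transcripts. Itgb8-201, the coding transcript of 8403 bases, was given 335 and 299 reads, and the retained introns Itgb8-203 and Itgb8-202 were given 142 and 95.5 and 60.6 and 58.6 reads. Counted over Itgb8-201 alone, Itgb8 was at 3.15 ± 0.127 TPM. Furin-201 was given 269 reads in library 1 and 311 in library 2, while its retained-intron transcript Furin-205 had more in library 1 than in library 2, 141 against 78.2 reads. The gene totals of Furin were closer, at 436 and 410 reads. In Smad4 a processed transcript of 487 bases, Smad4-204, held 29.9% of TPM in library 1 and 17.1% in library 2 from 35.7 and 15.2 reads. The Smad4-201 coding transcript differed less, at 15.1 and 14.2 TPM.

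Tgfbr2 was divided between a pair of coding transcripts that differ by a cassette exon of 75 bases, exon 2 of Tgfbr2-202 (chr9:116158271-116158345, minus strand), which lies in the region encoding the extracellular part of the receptor. The exon is shown in capitals between 24 coding bases of each neighbouring exon, sense strand, 5′ to 3′, mm10.
Tgfbr2-202 exon 2: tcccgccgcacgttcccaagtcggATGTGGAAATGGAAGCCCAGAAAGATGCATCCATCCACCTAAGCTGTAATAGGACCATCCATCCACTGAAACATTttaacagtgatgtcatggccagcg
Tgfbr2-202, which includes it, was given 1444 and 1279 reads, or 68.3% and 66.0% of the gene's TPM. Tgfbr2-201, which skips it, was given 286 and 281 reads, or 31.7% and 34.0%. The transcripts also differ outside the coding sequence, with last exons of 6265 and 1629 bases, so the division does not measure the inclusion of the exon by itself. In addition, 63 windows of Tgfbr2-202 (0.783%) occur in transcripts of 326 other genes.

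Tgfbr1, Lrrc32, Smad3 and Smad7 were dominated by 1 coding transcript each. Tgfbr1-201, of 5756 bases, was given 1406 and 1257 reads, and the shorter coding transcripts Tgfbr1-203 and Tgfbr1-205 were given 102 and 68.9 and 85.4 and 103 reads. Lrrc32-201 was given 1427 reads in library 1 and 2009 in library 2. Lrrc32-203, which has a coding sequence of the same length, 1992 bases, had more in library 1, 349 against 218 reads. Smad3-201 was given 678 and 661 reads. Smad7-201 was given all of the 376 and 345 reads of its gene.

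Ordered by full-length coding transcripts alone, the 10 genes ran Lrrc32 (43.2 ± 9.14 TPM), Tgfbr2 (20.9 ± 0.431), Tgfbr1 (19.3 ± 0.742), Smad4 (14.9 ± 0.735), Smad3 (11.0 ± 0.255), Smad7 (7.07 ± 0.141), Itgav (6.55 ± 0.0990), Furin (5.86 ± 0.834), Itgb8 (3.15 ± 0.127) and Tgfb1 (1.34 ± 0.148). Lrrc32 at the top and Tgfb1 at the bottom kept the places they had by gene TPM. Itgav stood at place 7 in place of 2, where it was not separated from Furin, and Smad3 and Smad7 each stood above it. Tgfbr2 stood just above Tgfbr1, with a ratio of 1.08 ± 0.0192 in place of 0.740 ± 0.00937.

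Strand and overlap bear on Itgav and Furin. Gm13684, a processed transcript on the opposite strand, shares 634 exonic bases with Itgav and was given 115 and 94.1 reads, and 588 of the 2728 windows (21.6%) of the processed transcript Itgav-209 occur in it. The antisense gene Gm44851 shares 118 exonic bases with Furin and was given 14.7 and 18.4 reads. The strand setting of the counting was not stated, so reads of these overlapping genes cannot be told apart. The other 8 genes share no exonic base with another annotated gene.

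A further deposited table counts whole reads of the same libraries per gene on GENCODE release M4, with totals of 3478224 and 3475360. For each gene its count was set against the estimated reads of the M21 table. The median over 9405 protein-coding genes with at least 50 M21 reads in each library was 40.5%, and the share was higher where more of the transcript is coding, from a median of 10.1% where under 10% is coding to 68.4% where over 80% is. All 10 genes lay below that overall median, from Smad4 at 30.4 ± 0.580% and Lrrc32 at 30.2 ± 3.17% down to Smad7 at 7.33 ± 0.535% and Smad3 at 4.80 ± 0.195%. Scaled to library size (CPM), 6 of the 10 were lower in the M4 table than in the M21 table, whereas Lrrc32 (145 and 212 against 119 and 155), Smad4 (59.2 and 49.5 against 44.3 and 39.2) and Tgfb1 (10.4 and 6.91 against 7.92 and 6.19) were higher in both libraries and Itgb8 in library 1. Compared only with genes of like coding share, within 5 percentage points, 9 of the 10 lay below the median of those genes and Itgb8 lay above it, at percentile 58.3. Tgfbr1 and Tgfbr2 were near the middle, at percentiles 47.5 and 41.1.

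The lowest places among genes of like coding share were those of Furin (percentile 9.87), Smad3 (10.1), Smad7 (11.5) and Itgav (12.6). Smad3 had 32 and 33 counts in the M4 table beside 686 and 668 estimated reads in the M21 table. Smad7 had 29 and 24 counts beside 376 and 345. The counter behind the M4 table is not stated in the files or labels, and the cause of the low counts was not tested.

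**Figure D4:**
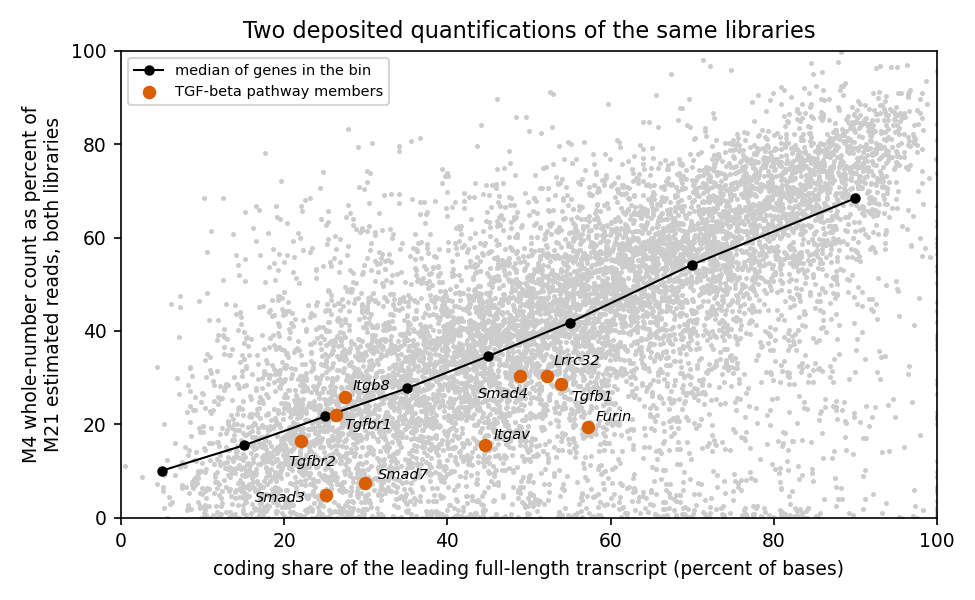
M4 whole-number count as a percent of M21 estimated reads, both libraries summed (vertical), against the coding percent of the gene's leading full-length transcript (horizontal). Grey points are protein-coding genes, the black line joins the medians of bins at the bin centres, and orange points are the 10 genes; Itgb8 lies above the line and Furin, Itgav, Smad3 and Smad7 lie far under it.

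The M4 table gives a further order of the 10 genes, from counts per gene and not from reads divided among transcripts. As counts scaled to library size (CPM) and divided by kilobase of coding sequence, Lrrc32 (89.5 ± 23.8), Tgfbr1 (63.6 ± 3.06), Tgfbr2 (43.8 ± 1.35) and Smad4 (32.8 ± 4.16) led again. This scale was chosen after the data were seen. It still rests on annotated transcripts, since the length is that of the gene's longest coding sequence. For Itgav this was the 3135 bases of Itgav-201 and not the 3027 of Itgav-202, which was given more reads. Whether the M4 counts scale with coding length was not tested. Itgb8 (16.0 ± 5.20) and Itgav (12.1 ± 0.0578) were not separated, and the ratio of Itgav to Itgb8 was 0.793 ± 0.253. Divided by the effective length of the M21 table instead, which for Itgav is shortened by the weight of Itgav-205, the same M4 counts gave a ratio of 3.82 ± 0.902. Furin (9.90 ± 1.70), Tgfb1 (7.36 ± 2.08), Smad3 (7.31 ± 0.163) and Smad7 (5.95 ± 0.790) closed the order, with Tgfb1 and Smad3 not separated. Lrrc32 had the highest mean on all 3 scales, although by gene TPM it was below Itgav in library 1. Per coding length Smad3 stood at 0.0718 ± 0.00445 times Smad2 in place of 0.402 ± 0.0592.

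The libraries were compared gene by gene with an exact two-sided binomial test on estimated reads, adjusted by Benjamini-Hochberg at 0.05. This compares 2 technical libraries and no conditions. Of 17271 genes tested 4198 were called, 24.3%. Of the 10 genes 1 was called, and 10 genes are too few to tell their share from that background. The called gene was Lrrc32, with a log2 ratio of library 2 to library 1 of 0.38, or 1.30-fold (adjusted p = 8.6e-15, exact binomial test). Its 1801 and 2271 reads have Poisson intervals of 1719 to 1886 and 2179 to 2366, which do not overlap. Among 9569 genes with at least 200 summed reads, which include all of the 10, the median size of the log2 ratio was 0.139. Of these 9569 genes 32.6% were called.

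None of the other genes passed the test. Itgb8 came nearest, with a log2 ratio of -0.21 (538 and 453 reads, adjusted p = 0.093, exact binomial test). Tgfb1, with the fewest reads, had the ratio of largest size among these, -0.34, with an adjusted p of 0.24 in the same exact test. Smad4 was at -0.18, Itgav, Tgfbr1 and Tgfbr2 at -0.11 each, Smad7 at -0.08, Furin at -0.05 and Smad3 at 0.00. Around them, 14 of the 59 other pathway genes tested were called higher in library 2 and 6 higher in library 1, beside 24.3% of all genes in either direction. Among them were Itgae (0.24, adjusted p = 5.2e-11) and Tgfbr3 (0.69, adjusted p = 5.2e-07) upward and Smad5 (-0.48, adjusted p = 8.2e-06) downward by the exact test. Allowing for extra spread between libraries with edgeR's exact test at a dispersion of 0.01, none of the 10 was called and 492 genes (2.85%) were. By M4 counts 1092 of 10978 genes (9.95%) were called, 2 of the 10 among them, Lrrc32 and Itgb8.

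**Figure D5:**
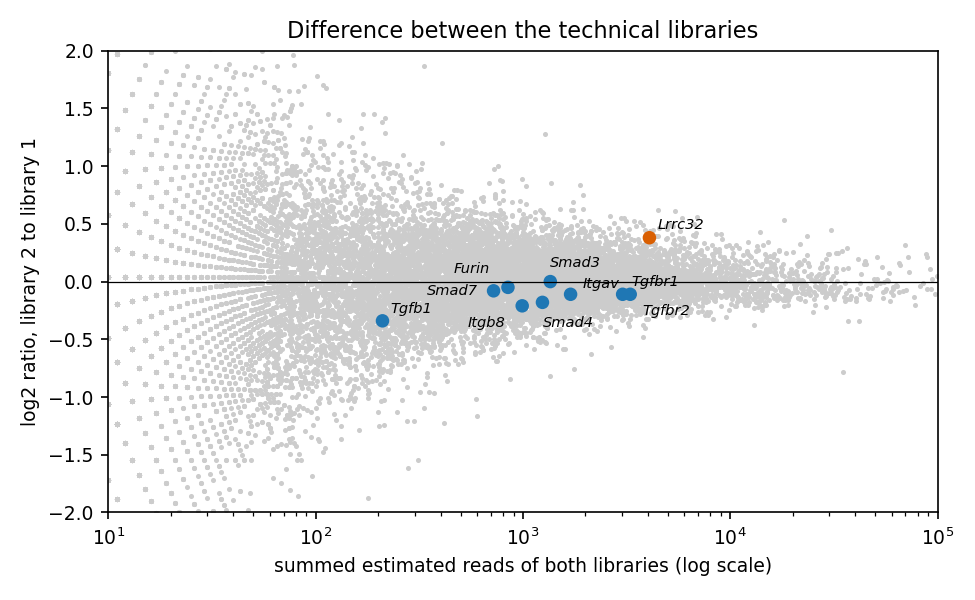
Log2 ratio of library 2 to library 1 (vertical) against the summed estimated reads of a gene (horizontal, log scale) for all tested genes (grey) and the 10 genes, orange where called by the exact binomial test and blue otherwise; grey points beyond 2 on either side are outside the frame. Lrrc32 lies at 0.38 and the other 9 between -0.34 and 0.00.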

How the data were processed

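Reads were quantified on mm10 with GENCODE M21 (gene and transcript tables) and M4 (whole-number table), per the listing the authors deposited beside each library. No source used here names the tools or the strand setting. Per the file headers, the authors deposited expected counts (estimated reads), TPM, FPKM and isoform percent per library, and posterior mean TPM with bounds of unstated level. The deposited M4 table holds a whole-number count per gene. Rows without a gene, 0.142% and 0.186% of estimated reads, did not enter library sizes or tests.

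TPM was used as deposited. Genes counted as expressed at 1 TPM in both libraries. Neighbours in an order were called separated where both libraries agreed on it and the means differed by more than the larger SD. Expected counts were rounded, and genes with a summed count of 10 or more were tested against library 2's share of reads; log2 ratios add 0.5. The binomial p-values weigh a difference between the technical libraries against counting error alone, and Poisson intervals cover counting error only. Alternatives used edgeR 4.0.16 (TMM sizes, exact test) and DESeq2 1.42.0 (size factors) in R 4.3.3. The rest ran in Python 3.11.15 with scipy 1.17.1, pandas 2.3.3, numpy 2.4.6 and matplotlib 3.10.9.

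The 10 genes, the 12 lists and the markers were chosen with earlier results of these data known. All 10 genes are named, and any gene of the lists and markers may be, the highest and lowest expressed of each list included. A few list and marker genes are not reported here by name. Hgs has 2 identifiers, and the one with more reads was used. The 90% rule for full-length transcripts, the comparison with genes of like coding share and its minimum of 50 reads were set after the data were seen. Sequences and coordinates (1-based) are from GENCODE M21 transcripts.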

Additional observations from a re-analysis of the deposited data

How the results depend on the processing

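The number of the 10 genes called between libraries was 1 with TMM sizes (24.4% of all genes called), DESeq2 size factors (24.5%) and no filter on low counts (12.4%), 0 with edgeR's exact test at a dispersion of 0.01 (2.85%), and 2 with M4 counts (9.95%), which added Itgb8. With DESeq2 size factors the log2 ratio of Smad3 turned from 0.00 to -0.01. Genes above the median expressed gene numbered 5, and 4 to 5 with 1 library left out or full-length transcripts only. Pathway genes expressed numbered 57, ran from 57 to 59 with 1 library left out, and fell to 42 at a threshold of 5 TPM. Of 60 alternative values for the levels, 30 moved by more than 1 SD of the libraries, as did 24 of 48 for the ratios. These shares do not measure robustness. Leaving out 1 of 2 libraries cannot move a mean by more than that SD. For the levels, FPKM and TPM over nuclear protein-coding genes rescale all genes together. The ratios of Itgav to Itgb8 (0.793 to 14.1) and of Smad3 to Smad2 (0.0355 to 0.402) moved most with the quantity used. No paired analysis was possible because there is 1 group. Counting error weighs most on Tgfb1, Smad3 and Smad7 in the M4 table, with fewer than 40 counts per library each.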
